A study of Homo sapiens with 6 samples.

Results

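Genes of the endoplasmic reticulum (ER) stress response and the integrated stress response were followed in SCC25 cells under hypoxia. A list of 39 gene symbols of the unfolded protein response (UPR), of ER-associated degradation and of the ATF4 pathway was matched to the gene identifiers of the count table. The table holds 21776 genes and a row for 38 of the 39. DERL3, a derlin of the degradation machinery, had no matching row and was not analysed here. All 38 genes passed the filter on low counts and were tested, among 14255 genes in all. Genes entered the list by name and role, and no threshold on a measured value was applied.

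SCC25 is an established human oral squamous cell carcinoma line, labelled WT in all 6 libraries. The hypoxia group (3 libraries) was kept for 12 h in a tri-gas incubator at 1% O2 and 5% CO2, with nitrogen as the balance. The normoxia group (3 libraries) was kept for the same 12 h in air with 5% CO2. Cells of both groups grew in DMEM/F12 with fetal bovine serum, and total RNA was made into mRNA libraries with a SMARTER kit. As a single line at a single time, the groups hold no stroma, no time course and no treatment that provokes ER stress by itself. The labels name SCC25, whereas a legend in the study names SCC9 for its RNA data. The hypoxia libraries held 30186813, 36076088 and 32272716 counts in order of replicate number, and the normoxia libraries 37278703, 29637189 and 29981208. The labels do not say whether the replicates were separate cultures, so p-values measure the spread between these libraries, which may be technical.

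Secreted and membrane proteins fold in the ER with the help of chaperones, glycan-binding lectins and enzymes that form disulfide bonds. When unfolded proteins accumulate, the membrane sensors IRE1 (gene ERN1), PERK (EIF2AK3) and ATF6 start the UPR. IRE1 splices the XBP1 message into that of an active transcription factor, ATF6 is cut to release another, and PERK phosphorylates eIF2α, which slows translation while favouring that of ATF4. Chaperones such as BiP (HSPA5) and ERAD components are classical targets of ATF6 and spliced XBP1, and DDIT3, TRIB3 and CHAC1 are classical targets of ATF4. Other eIF2α kinases feed into the same step, and the joint pathway is called the integrated stress response. Gene counts report transcript levels and not XBP1 splicing, ATF6 cleavage or eIF2α phosphorylation, none of which was measured in these libraries.

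The upstream sequences of these genes carry known response elements, shown here because such elements are what ATF6, XBP1 and ATF4 are known to bind in their classical targets. The windows came from RefSeq (GRCh38.p14), which had an entry for 36 of the 38 genes, and the 250 bases before each annotated start were searched on both strands. The ER stress response element (ERSE), CCAAT and CCACG with 9 bases of any kind between them, was present in 8 of the 36 genes (22.2%). It was in 25 of all 27305 genes with a window (0.0916%) and in 0.14% of those that were tested. Because the list was chosen by role and holds classical targets of these factors, the contrast with all genes is no test. The 8 genes were CALR, CANX, CRELD2, ERO1B, HSP90B1, HSPA5, PDIA6 and XBP1. In HSPA5 (chr9:125241363-125241433, minus strand), XBP1 (chr22:28800579-28800649, minus strand), CRELD2 (chr22:49918534-49918594, plus strand) and HSP90B1 (chr12:103930205-103930350, plus strand, with 2 matches) the stretches read as follows, 5′ to 3′ on the strand of the gene, with the ERSE in capitals in either orientation.
HSPA5: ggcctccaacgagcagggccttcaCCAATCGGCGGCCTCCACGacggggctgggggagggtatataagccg
XBP1: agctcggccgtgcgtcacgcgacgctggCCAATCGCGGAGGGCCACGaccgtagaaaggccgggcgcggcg
CRELD2: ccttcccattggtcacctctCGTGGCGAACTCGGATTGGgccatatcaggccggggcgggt
HSP90B1: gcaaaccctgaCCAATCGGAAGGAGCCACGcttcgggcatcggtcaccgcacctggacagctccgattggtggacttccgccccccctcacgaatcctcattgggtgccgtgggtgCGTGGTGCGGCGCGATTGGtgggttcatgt

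The shorter element ERSE-II, ATTGG and CCACG with 1 base of any kind between them, was found in HERPUD1, HYOU1 and SDF2L1, which is 8.33% of the 36 genes. It was in 18 of the 27305 genes (0.0659%) and in 0.14% of those that were tested. The same limit on the contrast holds here. HYOU1 (chr11:119057265-119057405, minus strand) held 2 matches and SDF2L1 (chr22:21642087-21642152, plus strand) held 1, in capitals below. HERPUD1 (chr16:56931952-56932047, plus strand) had an ERSE-II and also a C/EBP-ATF response element (CARE, TGATGNAA with N for any base), the element to which ATF4 dimers bind, and both are in capitals.
HYOU1: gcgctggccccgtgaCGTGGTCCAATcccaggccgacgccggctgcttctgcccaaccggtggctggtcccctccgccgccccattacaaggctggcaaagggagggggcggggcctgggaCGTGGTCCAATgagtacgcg
SDF2L1: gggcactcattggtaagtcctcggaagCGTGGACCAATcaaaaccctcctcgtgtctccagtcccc
HERPUD1: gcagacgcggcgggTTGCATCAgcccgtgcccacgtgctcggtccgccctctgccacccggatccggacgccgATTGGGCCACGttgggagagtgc

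The CARE was found in 4 of the 36 genes (11.1%, against 3.89% of all genes and 2.35% of those tested), namely ASNS, CHAC1, HERPUD1 and PPP1R15B. It is in capitals for CHAC1 (chr15:40953236-40953296, plus strand) and ASNS (chr7:97872443-97872503, minus strand). The core of the hypoxia response element (HRE), ACGTG, was in 12 of the 36 genes (33.3%), in 21.7% of all genes with a window and in 28.2% of those that were tested. The single HRE core of ERO1A (chr14:52695638-52695708, minus strand), which lies on the opposite strand and reads CACGT here, is also in capitals. The UPR element core TGACGTG, which contains the HRE core, was in DNAJC10 and HYOU1 (5.56%, against 2.05% of all genes and 2.75% of those tested). HRE cores also overlapped the ERSE-II matches of HERPUD1 and HYOU1. A match is a run of letters and not a bound site, and its absence says only that these letters were not in the window.
CHAC1: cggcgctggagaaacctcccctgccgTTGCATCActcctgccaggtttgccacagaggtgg
ASNS: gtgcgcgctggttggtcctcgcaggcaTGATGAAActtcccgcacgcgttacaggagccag
ERO1A: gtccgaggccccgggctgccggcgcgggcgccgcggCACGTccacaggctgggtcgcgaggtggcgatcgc

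Under hypoxia, 10 of the 38 genes rose, 17 fell and 11 did not pass an adjusted p-value of 0.05 (edgeR's quasi-likelihood test with Benjamini-Hochberg adjustment over all genes). Among all 14255 genes tested, 39.2% were higher, 38.5% were lower and 77.8% were called in either direction, so most genes of these cells passed the test. The share of higher genes was 26.3% in the list and the share of lower genes 44.7%. The changes in the list were small, with a median size of 0.28 on the log2 scale against 0.63 over all genes. The signed median log2-fold change was -0.089, and that of all genes tested was 0.02. Only ERO1A rose by at least 1 on the log2 scale, where 19.9% of all genes did, and only XBP1 and SDF2L1 fell by as much, where 10.5% did. The 3 libraries of each condition did not overlap in 29 of the 38 genes (10 higher and 19 lower under hypoxia), and in 80.5% of all genes. In bulk RNA, fewer cells expressing a gene and less of its RNA per cell cannot be told apart.

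**Figure D1:**
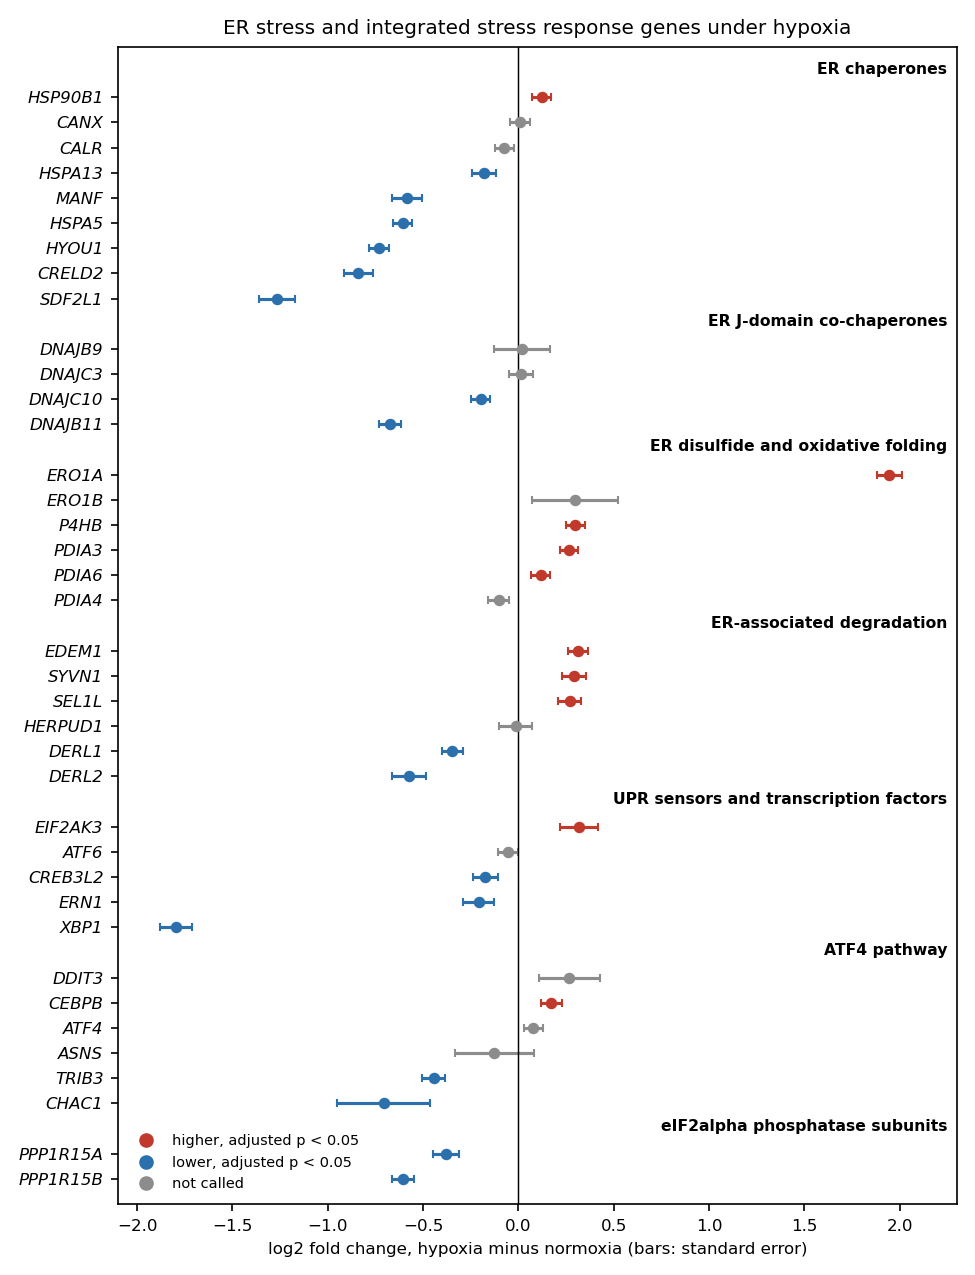
The log2-fold change of each of the 38 genes (x axis, hypoxia minus normoxia, bars for the standard error) is drawn by role, with red for higher, blue for lower and grey for genes not called. ERO1A at 1.95 and XBP1 at -1.80 are the extremes, and most other genes lie within 1 of the zero line.

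The 38 genes together took 0.835%, 0.838% and 0.845% of the counts in the hypoxia libraries against 0.778%, 0.781% and 0.788% under normoxia. Their summed level was 7957 ± 153 CPM under normoxia and 8261 ± 138 CPM under hypoxia (counts relative to library totals after TMM scaling; SD, n = 3), a difference of 3.8%, while their signed median change lay below zero. Without ERO1A, a choice made after seeing the data, the sum of the other 37 genes was 7769 ± 150 CPM under normoxia and 7534 ± 153 CPM under hypoxia, so the sign of the difference rested on that gene. Summed by role, the disulfide enzymes went from 2345 ± 58.8 CPM under normoxia to 3200 ± 81.5 CPM under hypoxia (36.5% higher). Without ERO1A they went from 2156 ± 52.8 to 2473 ± 62.1 CPM (14.7% higher). By comparison, the chaperones went from 3920 ± 89.1 to 3528 ± 86.5 CPM. The sensors and factors of the UPR stood at 216 ± 3.26 and 167 ± 3.57 CPM, the J-domain co-chaperones at 376 ± 6.14 and 300 ± 5.60 CPM, and the eIF2α phosphatase subunits at 192 ± 11.6 and 139 ± 8.43 CPM, under normoxia and hypoxia in that order. Without XBP1 the sensors and factors stood at 156 ± 0.949 and 150 ± 4.41 CPM. The genes of ER-associated degradation (375 ± 6.03 and 384 ± 6.03 CPM) and of the ATF4 pathway (534 ± 4.05 and 544 ± 14.1 CPM) differed by 2.2% and 2.0% in their sums. For the ATF4 pathway the sum was higher under hypoxia while the median log2-fold change of its genes was -0.024.

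Length-scaled levels, as deposited FPKM, put these changes on a common scale between genes. CALR, the lectin chaperone calreticulin, had the highest FPKM of the 38 in both conditions, at 516 ± 11 under normoxia and 507 ± 12.3 under hypoxia. P4HB and HSP90B1 followed with 346 ± 8.97 and 299 ± 14.8 FPKM under normoxia and 439 ± 12.0 and 336 ± 3.84 FPKM under hypoxia. HSPA5 stood in place 4 of this order under normoxia, at 161 ± 0.447 FPKM, and in place 9 under hypoxia, at 109 ± 4.46 FPKM. ERO1A moved the other way, from place 16 (34.0 ± 1.41 FPKM) to place 7 (135 ± 12.6 FPKM). XBP1 went from place 17 (30.4 ± 1.89 FPKM) to place 24 (9.03 ± 0.956 FPKM). The lowest FPKM belonged to ASNS, CHAC1 and ERO1B, all below 1 in both conditions.

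**Figure D2:**
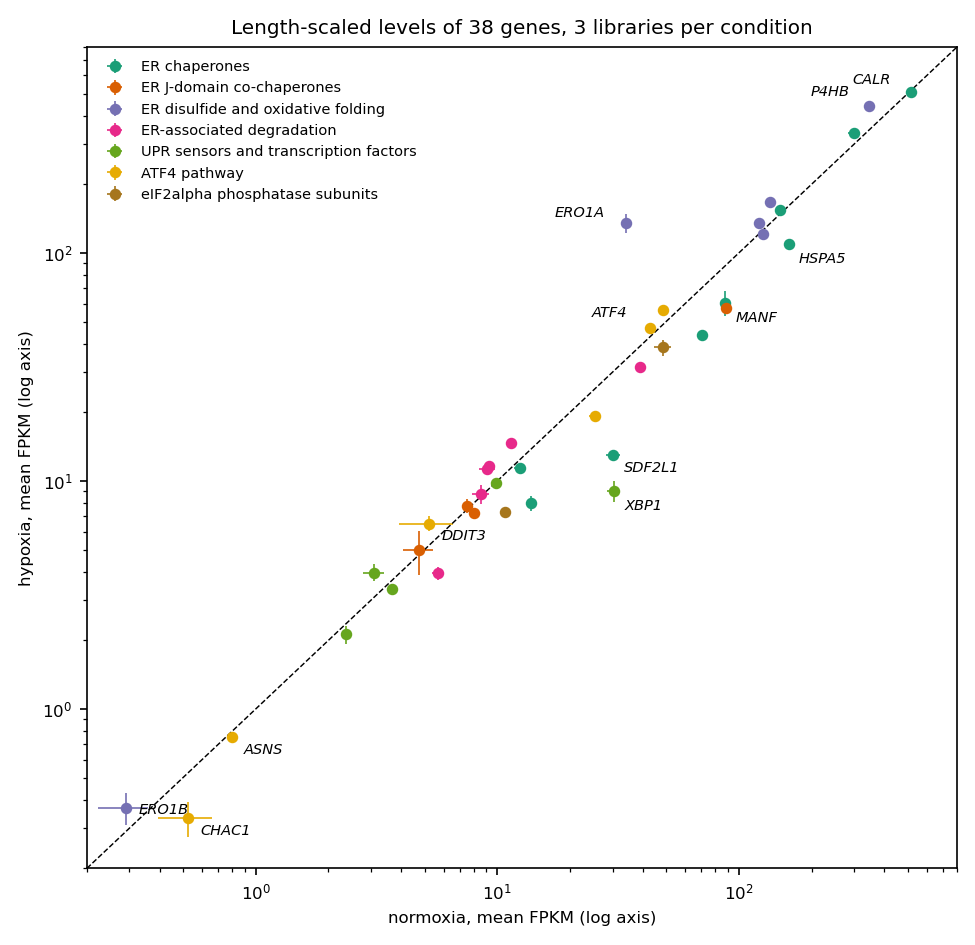
Mean FPKM of each gene under normoxia (x axis) and hypoxia (y axis) is shown on log axes, coloured by role, with bars for the SD of 3 libraries and a dashed line of equality. ERO1A lies far above the line, and XBP1, SDF2L1 and HSPA5 lie below it.

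Of 9 ER chaperones, 6 fell (66.7%, where 38.5% of all genes tested were lower), 1 rose and 2 were not called, with a median log2-fold change of -0.58. HSPA5 encodes BiP, the Hsp70 chaperone that holds the UPR sensors inactive, and its promoter carries the ERSE shown above. It measured 630, 655 and 639 CPM in the normoxia libraries and 443, 403 and 417 CPM in the hypoxia libraries. The lowest normoxia library was far above the highest hypoxia library. The log2-fold change was -0.61 (SE 0.051, adjusted p = 7.42e-09, edgeR's quasi-likelihood test with Benjamini-Hochberg adjustment), a level 34.4% lower under hypoxia.

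SDF2L1, a small ER protein that works with BiP and its J-domain partners, showed the largest decrease among the chaperones. Its level was 25.0, 27.7 and 23.6 CPM under normoxia and 10.6, 9.97 and 11.1 CPM under hypoxia. The conditions were well apart, with the highest hypoxia library below the lowest normoxia library. SDF2L1 fell by 1.27 on the log2 scale (standard error 0.095, adjusted p = 1.44e-09 by the same edgeR test). CRELD2, an ER-resident disulfide isomerase-like protein, measured 40.4, 40.6 and 41.5 CPM under normoxia and 24.9, 21.9 and 21.7 CPM under hypoxia. Its libraries did not overlap either, and it fell by 0.84 (standard error 0.074, adjusted p = 1.18e-08, edgeR). CRELD2 (6176 counts in all) shares 168 exon bases with ALG12 (5367 counts) on the opposite strand. HYOU1, the large Hsp70-type chaperone known as ORP150 that was named for its induction by low oxygen, fell by 0.73, from 339 ± 8.82 to 204 ± 8.46 CPM. MANF, a secreted ER stress protein with a protective role in neurons, fell by 0.58 (81.1 ± 2.29 to 54.1 ± 7.31 CPM), and HSPA13, a microsomal Hsp70 relative, by 0.18 (adjusted p = 0.0154, edgeR). The call of HSPA13 held in 8 of 14 other settings (largest adjusted p = 0.135), and those of the other 5 chaperones that fell held in all 14.

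The remaining chaperones moved little. HSP90B1, the ER paralog of Hsp90 known as GRP94, rose by 0.12 on the log2 scale (845 ± 41.8 to 919 ± 20.5 CPM, adjusted p = 0.0413, edgeR), and the call was lost with the replicate number as a block (adjusted p = 0.0869), without a filter on low counts, and on leaving out any 1 of 4 libraries. The lectins were not called. CANX (calnexin) had a log2-fold change of 0.0069 with a standard error that spans zero, at 900 ± 40.6 CPM under normoxia and 904 ± 19.2 CPM under hypoxia. Its sign changed without a filter on low counts. CALR had a log2-fold change of -0.074 (adjusted p = 0.192, edgeR), and its sign changed when every library had to hold at least 10 counts. HSPA5 and HSP90B1, which both carry an ERSE and are commonly induced together by ER stress, were called in opposite directions.

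Among the J-domain co-chaperones, which stimulate the ATPase of BiP, 2 of 4 fell (50%, against 38.5% of all genes) and none rose. DNAJB11 (ERdj3), which is also secreted with misfolded proteins, fell by 0.67, from 148 ± 8.23 to 92.9 ± 2.89 CPM (adjusted p = 6.3e-09, edgeR). DNAJC10 (ERdj5), a reductase that helps client proteins leave the ER for degradation, fell by 0.20 (adjusted p = 0.00164, edgeR). DNAJB9 (ERdj4) and DNAJC3 (p58IPK) were not called, at 11.6 ± 1.84 and 52.0 ± 1.94 CPM under normoxia and 11.8 ± 2.57 and 52.3 ± 2.81 CPM under hypoxia. DNAJB9 (2269 counts in all) overlaps exons of PNPLA8 (8198 counts) and THAP5 (5781 counts) on the opposite strand, so its counts are uncertain. DNAJB9, a textbook target of spliced XBP1, spread widely between libraries, and its log2-fold change of 0.017 had a standard error of 0.15.

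The enzymes of disulfide bond formation included the largest increase in the list. Of 6 genes, 4 rose, none fell and 2 were not called, with a median log2-fold change of 0.28. Of all genes tested, 39.2% were higher and 77.8% were called, and 66.7% of these 6 were called. ERO1A, the flavin oxidase that passes electrons from protein disulfide isomerase to oxygen, measured 183, 187 and 197 CPM under normoxia. Under hypoxia it measured 653, 768 and 760 CPM. Every hypoxia library stood above 3 times the highest normoxia library. ERO1A rose 3.85-fold in mean CPM, or 1.95 on the log2 scale (SE 0.064, adjusted p = 6.34e-14, edgeR).

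Its paralog ERO1B was far less abundant. It measured 2.42, 1.89 and 2.97 CPM under normoxia and 2.88, 3.47 and 2.59 CPM under hypoxia, from 54 to 129 counts per library. The conditions overlapped, and the log2-fold change of 0.30 did not pass the test (standard error 0.23, adjusted p = 0.235, edgeR). It was 0.15 without normoxia replicate 2 and 0.45 without normoxia replicate 3. The ratio of ERO1A to ERO1B within a library, on the CPM scale, was 75.5, 98.9 and 66.3 under normoxia and 227, 221 and 294 under hypoxia. The mean log2 ratio went from 6.31 ± 0.29 to 7.94 ± 0.23 (SD, n = 3), a difference of 1.63 and thus a ratio 3.10-fold larger under hypoxia. An exact two-sided permutation test gave p = 0.1, the smallest value that 3 libraries against 3 allow. The windows of the paralogs also differed in the motifs searched, with an HRE core in ERO1A and an ERSE in ERO1B. An HRE core was in 28.2% of the tested genes with a window. Whether the motifs bear on the levels of the paralogs was not tested.

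The protein disulfide isomerases changed by less, and those with a call in every setting were P4HB and PDIA3. P4HB, the founding isomerase and a subunit of prolyl 4-hydroxylase, rose by 0.30 (904 ± 28.2 to 1111 ± 35.7 CPM, adjusted p = 3.73e-05, edgeR). PDIA3 (ERp57), the partner of the lectin chaperones, rose by 0.26 (504 ± 13.4 to 605 ± 16.9 CPM, adjusted p = 0.000106, edgeR). PDIA6 had a log2-fold change of 0.12 (adjusted p = 0.0404, edgeR), a call that was lost with the replicate number as a block (adjusted p = 0.0962), without a filter on low counts, and on leaving out any 1 of 4 libraries. PDIA4 was not called, at 358 ± 11.4 CPM under normoxia and 333 ± 18.6 CPM under hypoxia (log2-fold change -0.10, adjusted p = 0.0876, edgeR), but passed as lower without a filter on low counts (adjusted p = 0.0172) and without hypoxia replicate 1 (adjusted p = 0.0293). PDIA6 shares 1033 bases (25.2% of its GENCODE v29 exons) with ATP6V1C2 on the opposite strand, which had 785 counts in all against 79037 for PDIA6.

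**Figure D3:**
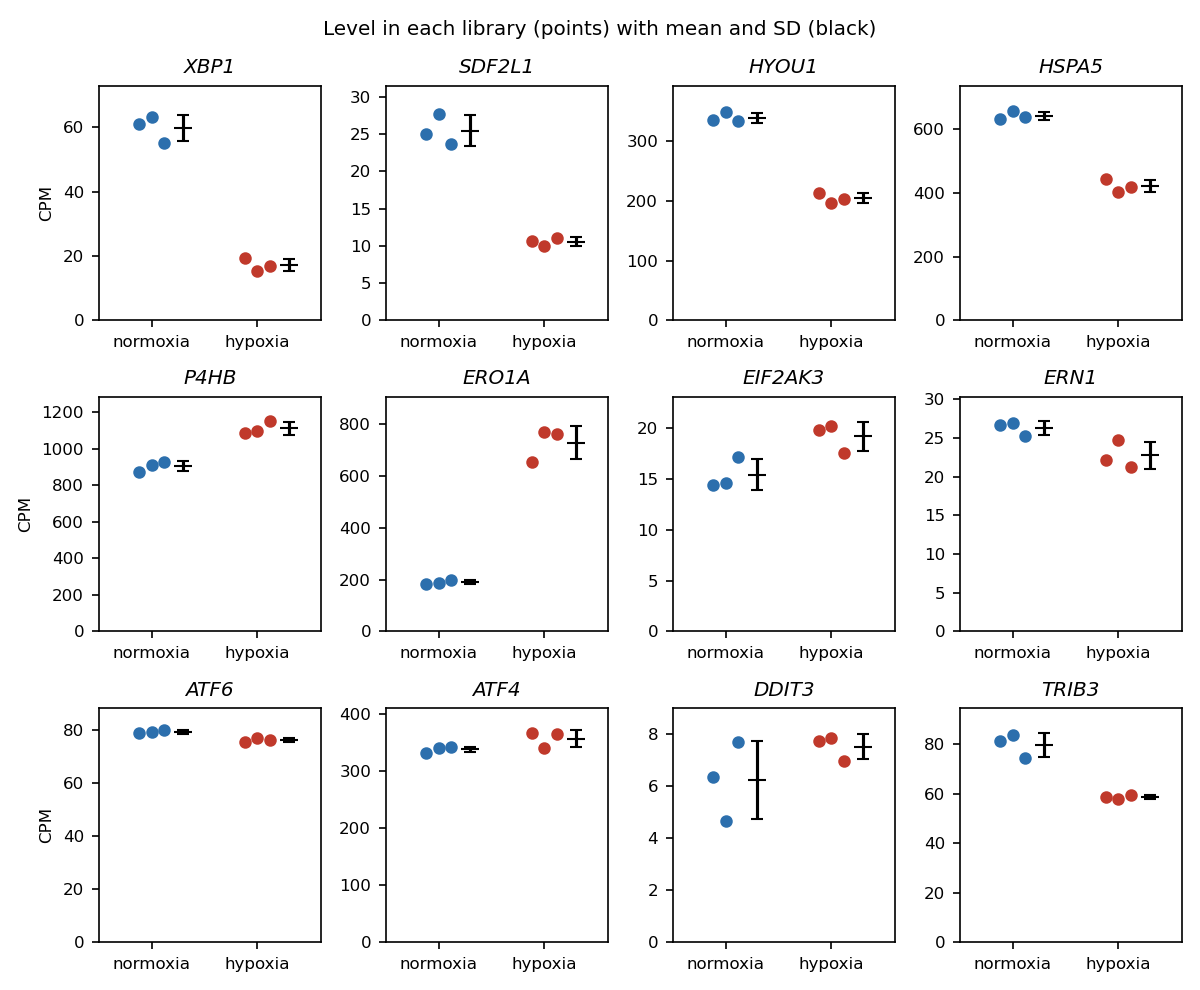
CPM (y axis, from 0) of 12 genes is plotted for the 3 normoxia libraries (blue) and the 3 hypoxia libraries (red), with the mean and SD in black. XBP1, SDF2L1, HYOU1, HSPA5 and TRIB3 are lower and ERO1A and P4HB higher in every hypoxia library, whereas ATF4 and DDIT3 overlap between the conditions.

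ER-associated degradation, which sends misfolded proteins back to the cytosol for ubiquitination, had 3 of 6 genes higher, 2 lower and 1 not called. These shares were near those over all genes (39.2% higher and 38.5% lower). The genes that rose were EDEM1, a mannosidase-like protein that marks glycoproteins for disposal, and the core of the ubiquitin ligase complex, SYVN1 (HRD1) and SEL1L. EDEM1 measured 80.8, 81.3 and 83.5 CPM under normoxia and 99.8, 102.3 and 102.8 CPM under hypoxia, with no overlap. It rose by 0.31 on the log2 scale (standard error 0.052, adjusted p = 3e-05, edgeR). SYVN1 rose by 0.29 (36.6 ± 1.51 to 44.8 ± 1.5 CPM) and SEL1L by 0.27 (79.0 ± 5.69 to 95.1 ± 3.65 CPM). SYVN1 shares 398 exon bases with FAU on its own strand, and FAU had 44298 counts in all against 7955 for SYVN1, so the counts of SYVN1 are uncertain.

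The derlins, which form part of the channel of this pathway, fell. DERL1 fell by 0.35 (129 ± 4.54 to 101 ± 4.5 CPM, adjusted p = 1.8e-05, edgeR) and DERL2 by 0.58 (24.1 ± 1.57 to 16.2 ± 1.02 CPM, adjusted p = 1.26e-05, edgeR). DERL2 (3915 counts in all) shares 301 exon bases with MIS12 (4103 counts) on the opposite strand. HERPUD1 (Herp), a membrane protein of the same complex whose window has both an ERSE-II and a CARE, was not called. It measured 24.8 ± 1.55 CPM under normoxia and 24.6 ± 2.35 CPM under hypoxia.

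Of the 5 UPR sensors and transcription factors, 3 fell (60%, against 38.5% of all genes), 1 rose and 1 was not called. XBP1 had the largest decrease of all 38 genes. It measured 60.9, 63.0 and 55.2 CPM under normoxia and 19.3, 15.4 and 17.0 CPM under hypoxia, from 2267, 1804 and 1634 counts and from 588, 571 and 553 counts. The groups were separated by more than the whole range of either. XBP1 fell by 1.80 on the log2 scale (SE 0.083, adjusted p = 3.29e-12, edgeR), and its mean CPM was 3.47-fold higher under normoxia. The count covers spliced and unspliced XBP1 together.

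The 3 sensors moved in different ways. EIF2AK3, the gene of PERK, measured 14.4, 14.6 and 17.2 CPM under normoxia and 19.8, 20.2 and 17.5 CPM under hypoxia. Normoxia replicate 3 and hypoxia replicate 3 lay nearly level, though the groups did not overlap. EIF2AK3 rose by 0.32 (standard error 0.099, adjusted p = 0.00757, edgeR), and without normoxia replicate 1 the adjusted p was 0.0519. ERN1, the gene of IRE1, measured 26.7, 27.0 and 25.3 CPM under normoxia and 22.2, 24.7 and 21.3 CPM under hypoxia. The highest hypoxia library was just below the lowest normoxia library. ERN1 fell by 0.21 (standard error 0.081, adjusted p = 0.0263, edgeR), a call that held in 6 of 14 other settings (largest adjusted p = 0.235). ATF6 measured 78.8, 79.2 and 80.1 CPM under normoxia and 75.5, 77.2 and 76.4 CPM under hypoxia. All 3 hypoxia libraries were lower, but the log2-fold change of -0.055 did not pass the test (adjusted p = 0.337, edgeR) and its sign changed with the filter on low counts. CREB3L2, a transcription factor of the same membrane-bound type as ATF6 that serves secretory cells, fell by 0.17 (35.3 ± 0.413 to 31.3 ± 0.912 CPM, adjusted p = 0.0235, edgeR), a call that held in 8 of 14 other settings (largest adjusted p = 0.184). Of the 3 decreases in this group, that of XBP1 held in all 14.

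In the ATF4 pathway 1 of 6 genes rose, 2 fell (33.3%, near the 38.5% of all genes) and 3 were not called. ATF4, the central factor, is regulated mainly at translation. Its level was 332, 340 and 341 CPM under normoxia and 366, 340 and 364 CPM under hypoxia. Hypoxia replicate 2 lay within the normoxia range, and the log2-fold change of 0.078 was not called (standard error 0.050, adjusted p = 0.165, edgeR). When every library had to hold at least 10 counts of a gene, ATF4 did pass (0.16, adjusted p = 0.00818, edgeR). It also passed in the 3 fits to FPKM (0.12 in each, largest adjusted p = 0.0209, limma), and it was not called in the other 10 settings. The stricter filter moved the median of all shared genes by 0.077 and the FPKM fit by 0.050, about as far as ATF4 moved. DDIT3, the gene of the death-promoting factor CHOP, measured 6.37, 4.68 and 7.71 CPM under normoxia and 7.76, 7.88 and 6.97 CPM under hypoxia. The groups overlapped through normoxia replicate 3, and the log2-fold change of 0.27 was not called (standard error 0.16, adjusted p = 0.138, edgeR). Without normoxia replicate 3 it was 0.42 and passed (adjusted p = 0.0157, edgeR), and without normoxia replicate 2 it was 0.095 (adjusted p = 0.579, edgeR). DDIT3 shares 355 bases (27.2% of its GENCODE v29 exons) with MARS on the opposite strand, so its counts are uncertain where the counting ignored the strand. DDIT3 had 1355 counts in all.

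Of the remaining ATF4-pathway genes, TRIB3, a pseudokinase that restrains AKT and CHOP signalling, fell by 0.44, from 79.7 ± 4.81 to 58.6 ± 0.784 CPM (adjusted p = 2.25e-06, edgeR). CHAC1, which degrades glutathione, was low and fell by 0.71. Its libraries held 2.47, 4.19 and 3.11 CPM under normoxia and 2.36, 1.94 and 1.66 CPM under hypoxia. The highest hypoxia library lay close below the lowest normoxia library. The standard error of CHAC1 was 0.24 (adjusted p = 0.0137, edgeR), and the largest adjusted p on leaving out a library was 0.092. ASNS, the asparagine synthetase, was at 2.61 ± 0.0391 CPM under normoxia and 2.39 ± 0.121 CPM under hypoxia and was not called (adjusted p = 0.583, edgeR). ASNS shares 44.6% of its exon bases with AC079781.5 on its own strand. CEBPB, a partner of ATF4 with many other roles, rose by 0.17 (104 ± 2.41 to 117 ± 4.60 CPM, adjusted p = 0.00707, edgeR), a call that held in 12 of 14 other settings and was lost without hypoxia replicate 3 (adjusted p = 0.0513, edgeR).

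Both regulatory subunits of the phosphatase that removes the phosphate from eIF2α fell. Of all genes tested, 38.5% were lower and 77.8% were called in either direction. PPP1R15A (GADD34), the inducible subunit, fell by 0.38, from 116 ± 9.78 to 89.0 ± 6.64 CPM (adjusted p = 6.95e-05, edgeR). PPP1R15B (CReP), the constitutive subunit, fell by 0.61, from 75.9 ± 2.22 to 49.8 ± 2.08 CPM (adjusted p = 3.63e-08, edgeR).

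Read by upstream element, the called genes were few. Each count stands against 39.2% higher and 38.5% lower over all genes tested. Of the 8 genes with an ERSE, 2 rose (HSP90B1 and PDIA6), 3 fell (CRELD2, HSPA5 and XBP1) and 3 were not called. Both increases were lost with the replicate number as a block, and the 3 decreases held in every setting. The log2-fold changes of the 8 genes ran from -1.80 in XBP1 to 0.30 in ERO1B. Among the 16 tested genes of the whole table with an ERSE, these 8 included, 5 were higher and 6 lower. The whole-table counts of the other elements also include the listed genes. Of the 3 genes with an ERSE-II, HYOU1 and SDF2L1 fell and HERPUD1 was not called, whereas 7 of the 16 tested genes of the whole table with an ERSE-II were higher and 6 lower. Of the 4 with a CARE, CHAC1 and PPP1R15B fell and ASNS and HERPUD1 were not called, and of all 268 tested genes with a CARE 99 were higher and 97 lower. Of the 12 with an HRE core, 3 rose (ERO1A, HSP90B1 and SYVN1), 4 fell (DNAJC10, HSPA13, HYOU1 and XBP1) and 5 were not called. The largest increase of the list, in ERO1A, and the largest decrease, in XBP1, were thus both in genes with an HRE core. Over all 3221 tested genes with that core, 1224 were higher and 1310 lower.

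**Figure D4:**
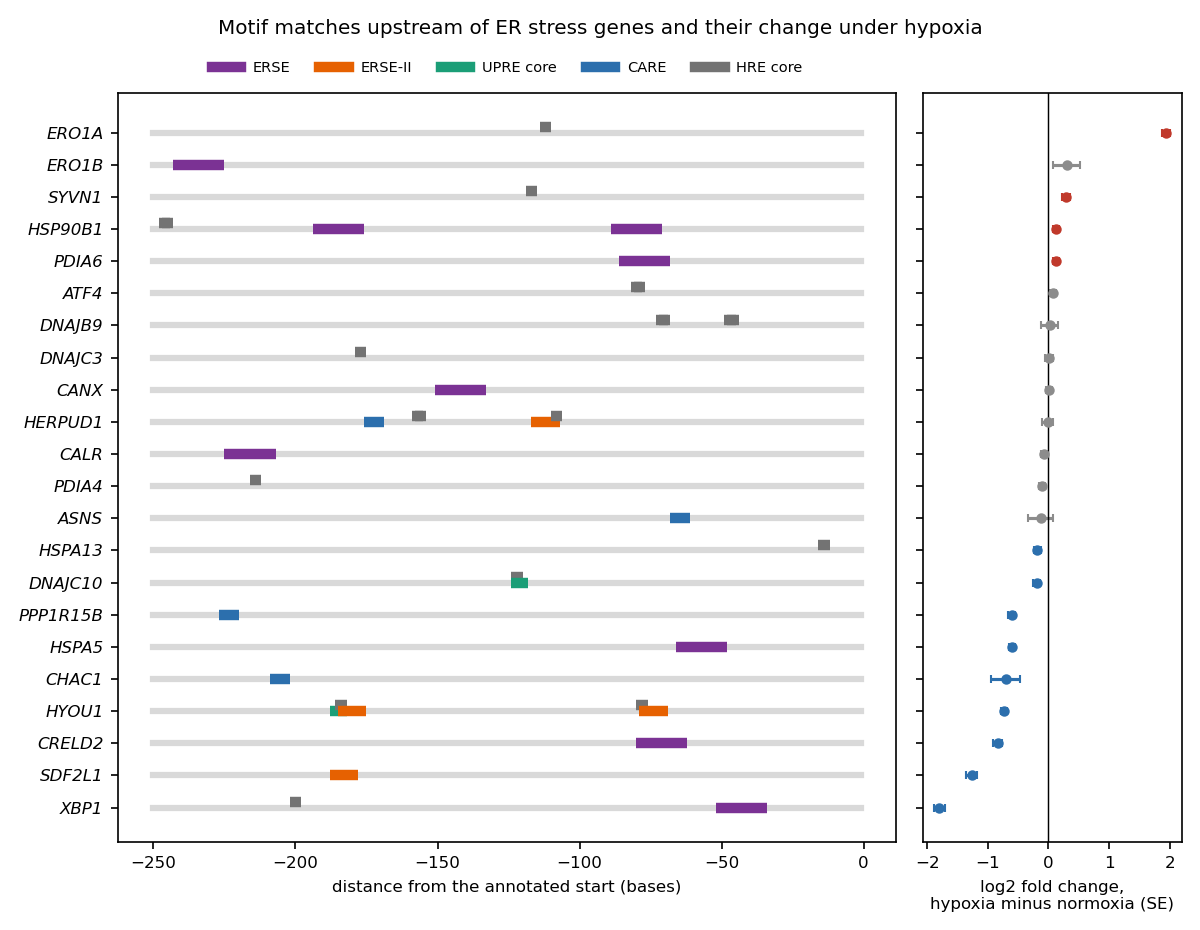
Motif matches in the 250 bases before the annotated start (x axis, distance in bases; left) are drawn for the 22 genes with at least 1 match, beside the log2-fold change of each gene with its standard error (right). Genes with an ERSE (purple) run from ERO1B at 0.30, which was not called, to XBP1 at -1.80. ERO1A at the top has an HRE core (grey) only, and XBP1 at the bottom has an HRE core besides its ERSE.

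Other genes of these pathways, 131 in 8 further lists, were read in the same way. Of the 123 that were tested, 33 rose (26.8%), 67 fell (54.5%) and 23 were not called, with a median log2-fold change of -0.26. The counts of each list stand against 39.2% higher and 38.5% lower among all genes tested. The other kinases of eIF2α, the guanine exchange factor eIF2B and the catalytic phosphatase subunits were nearly all lower, with 10 of 12 falling and 1 rising. EIF2S1, which encodes eIF2α itself, fell by 1.43 (281 ± 17.3 to 104 ± 6.76 CPM), and EIF2B3, a subunit of eIF2B, by 1.80 (38.3 ± 5.13 to 11 ± 0.748 CPM). PPP1CB rose by 0.57, and EIF2B2 was not called (log2-fold change -0.11).

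Of 27 other genes of the ATF4 pathway, 12 were higher (44.4%) and 13 lower (48.1%), near the shares over all genes, with a median log2-fold change of -0.11. DDIT4 (REDD1), an inhibitor of mTORC1 that is also a known hypoxia response gene, rose by 3.74 (150 ± 43.0 to 2005 ± 58.5 CPM, adjusted p = 1.69e-13, edgeR). NUPR1, a small stress-induced chromatin protein, rose by 3.86 (SE 0.51) from 4, 1 and 4 counts under normoxia to 48, 64 and 31 counts under hypoxia, and passed the filter on low counts through the hypoxia libraries. SLC7A11, the cystine importer, fell by 3.31 (113 ± 6.12 to 11.4 ± 0.340 CPM, adjusted p = 1.35e-15, edgeR), and the transcription factor ATF5 fell by 2.02.

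Of 23 other genes of ER-associated degradation 5 rose and 13 fell, among them VCP, the ATPase that extracts substrates from the membrane, from 841 ± 24.9 to 383 ± 25.6 CPM (log2-fold change -1.14). SELENOS, a membrane partner of VCP, fell by 1.01, while the lectin OS9 rose by 0.67 and the deglycosylating enzyme NGLY1 by 0.64. Of 17 genes of the translocon and signal peptidase 2 rose and 10 fell, with SRPRB, a subunit of the signal recognition particle receptor, at 92.6 ± 10.1 CPM under normoxia and 24.4 ± 1.19 CPM under hypoxia (log2-fold change -1.92). SEC11C fell by 1.17, and SEC11A (0.41) and SEC61G (0.30) rose. Of 16 other ER oxidoreductases 4 rose, led by QSOX1 (0.87) and SELENOM (0.66), and 9 fell, with TMX2 (-0.94) and TMX4 (-1.03) lowest. QSOX1, like ERO1A, is an oxidase that uses oxygen.

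Smaller changes were seen in the 14 genes of oligosaccharyltransferase and glycoprotein folding, of which 3 rose and 5 fell, from -0.42 in RPN1 and STT3A to 0.29 in DDOST and 0.41 in TUSC3. Of 5 tested factors and proteases related to ATF6, 3 rose and 1 fell, with ATF6B at 0.69, CREB3L4 at 0.63, CREB3 at 0.17 (not called) and MBTPS2, the site-2 protease, at -0.45. Of 9 genes of cell death linked to ER stress, 3 rose and 6 fell. The BH3-only genes BBC3 (1.25) and BCL2L11 (1.12) were among those that rose, while PMAIP1, of the same class and named after its value was seen, fell by 0.85. The effector BAX (-1.07) and the survival gene BCL2 (-1.18) were also among those that fell.

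**Figure D5:**
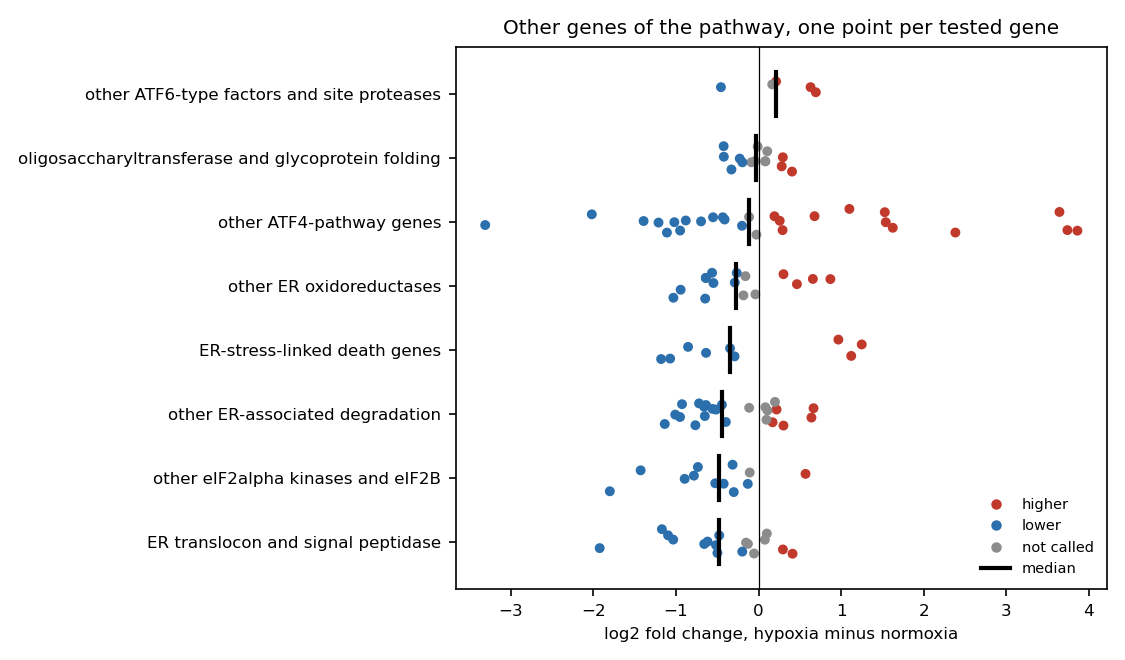
Each point is the log2-fold change (x axis, hypoxia minus normoxia) of 1 tested gene in 8 further lists of the pathway, with red for higher, blue for lower, grey for not called and a black bar for the median. The list of other ATF4-pathway genes spreads widest, from -3.31 in SLC7A11 to 3.74 in DDIT4, with NUPR1 beyond it at 3.86 from few counts.

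The labels and the cell type were checked in the same libraries. All 15 hypoxia response genes of a further list were higher under hypoxia (edgeR, adjusted p under 0.05), CA9 by 2.71 and NDRG1 by 5.40 on the log2 scale. The 8 squamous epithelial markers summed to 892 to 1071 CPM per library, with means of 916 CPM under normoxia and 1056 CPM under hypoxia and CDH1 the most abundant. Among them CDH1 (1.35), DSG3 (1.35) and KRT17 (over 1) were higher and SFN (-0.80), EPCAM (-0.35) and KRT5 (-0.18) lower under hypoxia on the log2 scale. KRT14 was at or near 0 in every library, although its partner KRT5 stood at 105 to 137 CPM. The leukocyte markers PTPRC and CD3E were at or near 0, and the list summed to 33.0 to 39.6 CPM, most of it CD68. CD14, of the same list, was higher under hypoxia, at 5.83 ± 0.445 CPM against 1.07 ± 0.481 CPM (log2-fold change 2.45, adjusted p = 7.27e-08, edgeR). The 5 fibroblast markers summed to 4.27 CPM under normoxia and 19.3 CPM under hypoxia, most of it COL1A1, and 4 of the 5 were below 1 CPM in every library. The 4 endothelial markers summed to 0.451 CPM under normoxia and 1.48 CPM under hypoxia. CDH5, the most abundant, was higher (log2-fold change 1.14, adjusted p = 0.025, edgeR). It held 9, 9 and 22 counts under normoxia and 32, 28 and 34 under hypoxia, and passed the filter on low counts through the hypoxia libraries. The part of these marker differences in the results above was not tested.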

How the data were processed

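RNA was sequenced from SCC25 cells in 6 libraries, 3 under hypoxia and 3 under normoxia. The authors deposited whole-number counts per gene without normalization, and FPKM of the same genes, scaled by gene length and library total. The aligner, counter, annotation and use of strand are not given in the sources used here. The submitters' processing notes name the mouse builds GRCm38 and mm10, whereas gene symbols and Entrez numbers are human, so coordinates here come only from RefSeq. Exon overlaps came from GENCODE v29.

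The 39 listed genes, the other lists and the tests were chosen with earlier results of these data known. All genes may be named from the list, and from each other list the 2 largest and 2 smallest log2-fold changes; of the hypoxia response genes, used to check labels, CA9, NDRG1 and VEGFA may be named. Markers were named after their values were seen, as were partners in exon overlaps. Counts were tested with edgeR 4.0.16 (R 4.3.3; TMM, filterByExpr, glmQLFit and glmQLFTest, condition only) with Benjamini-Hochberg adjustment at 0.05 over 14255 genes. Standard errors (SE) are |log2-fold change| over the root of the F statistic, and CPM are counts scaled to TMM-adjusted totals. Totals of 29637189 to 37278703 counts and a biological coefficient of variation of 0.0685 set the precision. Alternatives used DESeq2 1.42.0 and limma 3.58.1 on log2(FPKM + 1), other filters, a replicate block, and each library left out. A simulation with the same library totals changed 200 genes, each by 1 or 2 on the log2 scale, with the same dispersion for every gene. In it (14221 genes tested) edgeR recovered 193 of 199 changed genes (7.21% of its calls false) and DESeq2 189 (6.44% false). On simulated FPKM limma recovered 185 of 185 (12588 genes, 7.04% false). In the data 77.8% of genes were called, and the listed genes had a median size of 0.28 on the log2 scale. The simulated rates therefore do not cover changes this small, or a table in which most genes change. All replicate pairs differed by more than sampling noise (chi-square per gene 5.11 to 11.5).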

Additional observations from a re-analysis of the deposited data

How the results depend on the processing

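Of the 27 calls among the 38 genes, 19 kept an adjusted p under 0.05 in every alternative run, 6 of them higher (ERO1A, EDEM1, P4HB, SYVN1, SEL1L and PDIA3) and 13 lower. The other 8 were lost in at least 1 alternative, namely EIF2AK3 (largest adjusted p = 0.0519), CEBPB (0.0537), HSP90B1 (0.242), PDIA6 (0.236), CREB3L2 (0.184), HSPA13 (0.135), ERN1 (0.235) and CHAC1 (0.092), by edgeR or limma. Single libraries whose removal lost a call were normoxia replicate 1 for EIF2AK3, CREB3L2, HSPA13, ERN1, HSP90B1 and PDIA6, normoxia replicate 2 for ERN1, CHAC1 and HSP90B1, normoxia replicate 3 for PDIA6, hypoxia replicate 1 for ERN1, HSP90B1 and PDIA6, hypoxia replicate 2 for HSPA13, and hypoxia replicate 3 for CEBPB, CREB3L2, ERN1, CHAC1, HSP90B1 and PDIA6. With a log2-fold change of at least 1 required as well, 1 gene of the list was higher and 2 were lower, and over all genes 2840 were higher and 1498 lower. Without that requirement the genes called ranged from 8875 to 11920, and the share of them that was higher went from 50.5% to 45.3% with limma on log2(FPKM + 1), which also tested fewer genes (10976, those averaging 1 FPKM or more).

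The sign turned only in genes that were not called. Filters moved the whole table, with a median shift over shared genes of -0.041 without a filter, 0.077 with the filter of 10 counts and 0.050 from FPKM, and the flips under these settings were about as large as the shift. Without a filter DNAJB9 was at -0.023, DNAJC3 at -0.029 and CANX at -0.034. With at least 10 counts in every library HERPUD1 was at 0.063, ATF6 at 0.022 and CALR at 0.0033. From FPKM HERPUD1 was at 0.030 with a pseudocount of 1, 0.033 with a pseudocount of 0.1 and 0.030 without a filter. Leaving out 1 library gave -0.17 to 0.15 for DNAJB9, -0.037 to 0.037 for DNAJC3, -0.039 to 0.034 for CANX and -0.10 to 0.025 for HERPUD1. PDIA4 was called lower without a filter (-0.14, adjusted p = 0.0172, edgeR) and without hypoxia replicate 1 (-0.15, adjusted p = 0.0293, edgeR). Of 526 values of single genes under an alternative, 460 kept direction and side of the threshold, 38 lost a call, 7 gained one and 21 changed sign; the cause was not tested.

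Libraries of the same replicate number did not deviate together (correlations of 0.018, -0.069 and 0.0012 across genes), so the numbers were not taken as pairs. With the replicate number as a block, 10875 genes were called in place of 11090, and of the listed genes HSP90B1 (adjusted p = 0.0869, edgeR) and PDIA6 (adjusted p = 0.0962, edgeR) were no longer called. Depth limits ERO1B, CHAC1 and ASNS most, at 1.66 to 4.19 CPM. Strand, annotation and counting were not given, and the builds named were those of mouse. Shared exons therefore leave ASNS, CRELD2, DDIT3, DERL2, DNAJB9 and SYVN1 uncertain. Of the 38 genes, 20 share exon bases with another gene.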

Other observations

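Terms in the annotation deposited beside the counts, chosen after the data had been seen, gave the wider setting of the listed genes. Each count stands against 39.2% higher and 38.5% lower over all genes tested. Of the 65 tested genes of the Reactome pathway "Unfolded Protein Response" outside the list, 18 were higher and 43 lower under hypoxia (edgeR, adjusted p under 0.05), with a median log2-fold change of -0.44. In the Reactome set of genes that ATF4 activates on ER stress, 2 of 19 genes outside the list were higher and 17 lower, with a median of -0.76. The GO term for integrated stress response signaling was even, with 7 of 18 genes outside the list higher and 8 lower, and a median of -0.18. In the set activated by spliced XBP1, 12 of 38 such genes were higher and 23 lower, with a median of -0.27.

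In the calnexin and calreticulin cycle, 8 of 19 tested genes outside the list were higher (42.1%, near the share over all genes) and 3 lower (15.8%), with a median of 0.11. Of 191 tested genes annotated to the ER lumen outside the list, 110 were higher and 49 lower, with a median of 0.38. ER-associated degradation by ubiquitin had 18 of 57 genes higher and 29 lower, with a median of -0.20. These counts describe overlapping terms and were not tested against each other.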
